A study of Arabidopsis thaliana with 12 samples.

Results

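The genes described are 10 nuclear genes of chlorophyll synthesis in Arabidopsis thaliana: HEMA1, HEMA2, GUN4, GUN5 (also named CHLH), CHLI1, CHLM, CRD1 (CHL27), DVR (PCB2), CAO (CH1) and CHLG (G4). They were chosen by name, as enzymes or enzyme regulators of the pathway other than the protochlorophyllide oxidoreductases, and each was found through the transcript accession of its probe. All 10 were on the array, among 25410 loci with a probe, and all 10 were among the 20487 genes tested. Each of their probes was well above background on 12 of 12 arrays, so no member entered the tests through 1 bright group. Expression was measured in whole seedlings on one-colour Agilent arrays, with 3 arrays in each of 4 groups. The groups were the cry1cry2 double mutant on 3B7N, cry1cry2 on DMSO, wild type Col-0 on 3B7N and wild type Col-0 on DMSO. The mutant lacks the blue-light receptors CRY1 and CRY2. 3B7N is 3-bromo-7-nitroindazole, which blocks mammalian nitric oxide synthase. The medium held it at 15 µM, or its solvent DMSO. Seeds of every group spent 3 days in the dark at 4°C and then 4 days under blue light that stayed on, at a fluence rate of 5 µmol m-2 s-1. Whether the 3 arrays of each group hold RNA of separate cultures is not given in the labels, so the p-values measure the spread between these samples, which may be technical.

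Chlorophyll and heme are made in plastids from the same precursor, 5-aminolevulinic acid, which glutamyl-tRNA reductase provides in the first committed step. At protoporphyrin IX the path divides: ferrochelatase inserts iron for heme, and magnesium chelatase inserts magnesium for chlorophyll. The magnesium branch then passes through a methyltransferase, a cyclase, the light-dependent protochlorophyllide oxidoreductases, a divinyl reductase, chlorophyll synthase and, for chlorophyll b, an oxygenase. Many of these genes are induced by light in seedlings, and free intermediates of the path are phototoxic.

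Values are log2 processed signals relative to the 75th percentile of the same array, so a gene's values can be set against each other across arrays but not against another gene's. The 75th percentile itself was between 883 and 6794 signal units, and between 64.3% and 81.0% of probes were well above background. It was 883 to 2333 on wild-type arrays and 2567 to 6794 on mutant arrays. Every mutant array was thus brighter than every wild-type array, so genotype and array brightness cannot be told apart. Arrays of 1 group correlated at r = 0.979 to 0.993 over the tested genes. The arrays lay on 3 slides: the first held wild type on DMSO and 1 array of wild type on 3B7N, the second held 2 arrays each of wild type on 3B7N and cry1cry2 on DMSO, and the third held 1 array of cry1cry2 on DMSO and all of cry1cry2 on 3B7N. No slide held both genotypes on the same medium, so genotype and slide cannot be fully told apart. The labels were borne out by the mutated genes. A CRY1 probe that was above background on 0 of 3 mutant DMSO arrays was at least 2263-fold lower in cry1cry2 than in wild type on DMSO, and such a CRY2 probe at least 1429-fold lower. Seedlings were not dissected, so fewer green cells and less RNA per cell cannot be told apart in any value below.

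**Figure D1:**
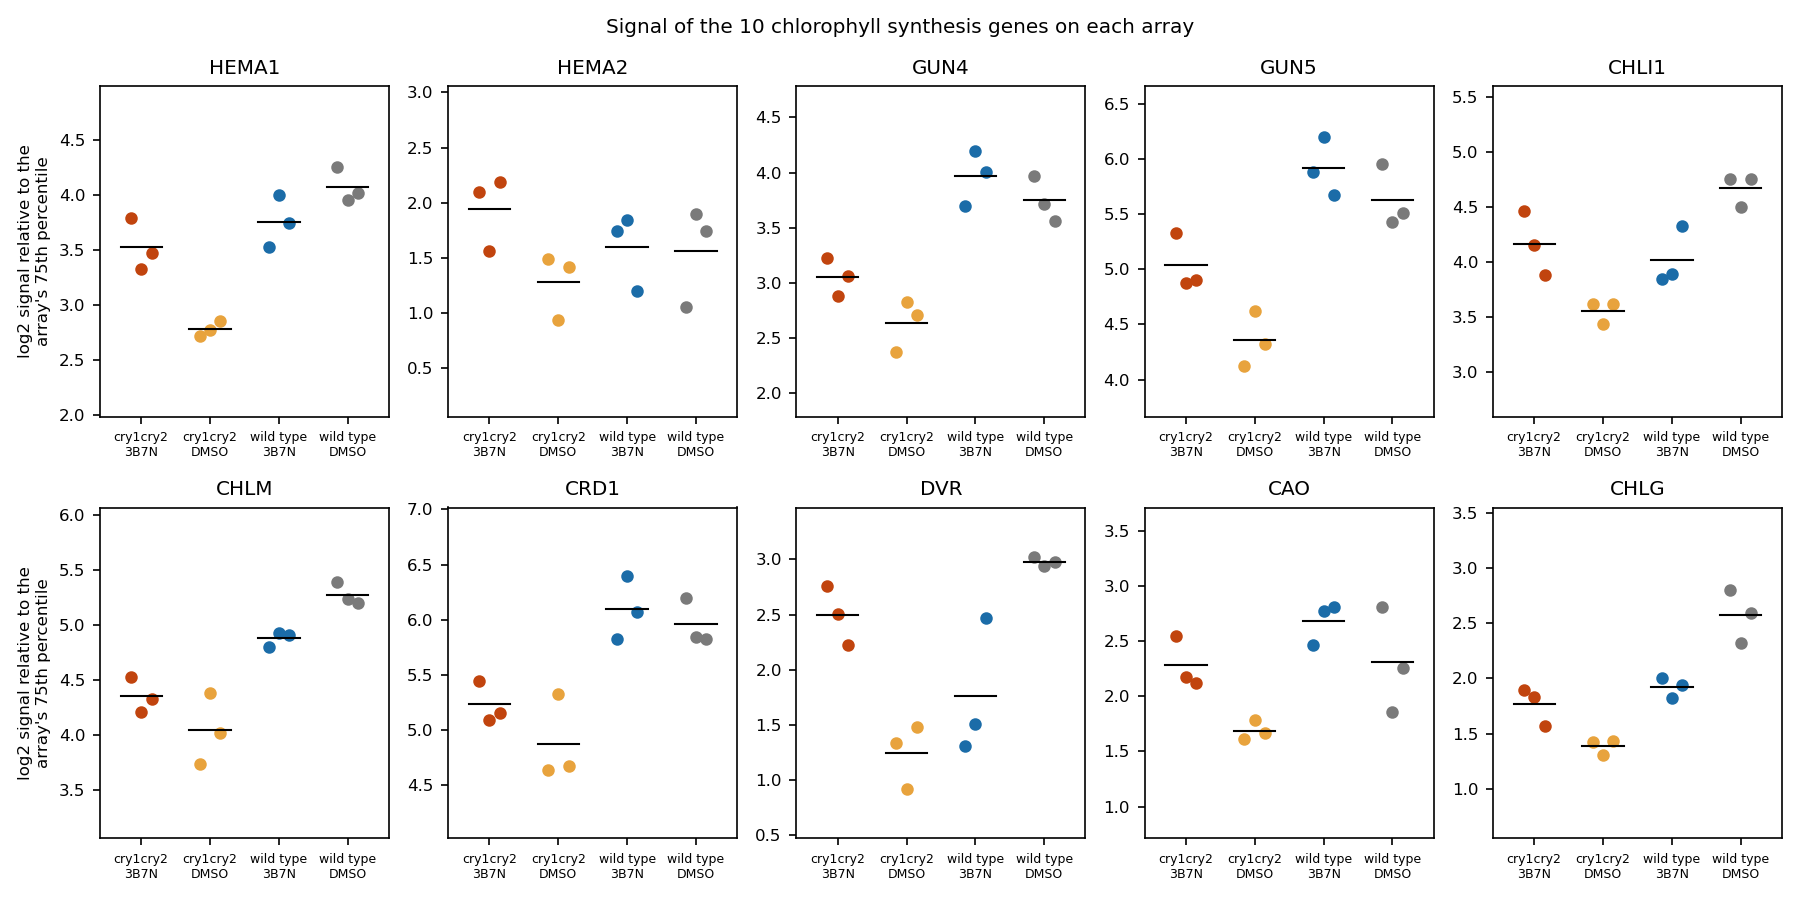
Log2 processed signal relative to the 75th percentile of the array for the 10 genes, 1 dot for each of 3 arrays a group and a line at the group mean. All panels span the same number of log2 units but start at different levels. cry1cry2 on DMSO has the lowest mean in every panel. By group mean, DVR is split into a high pair (cry1cry2 on 3B7N, wild type on DMSO) and a low pair. Array 3 of wild type on 3B7N lies within the range of cry1cry2 on 3B7N.

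HEMA1 (AT1G58290) and HEMA2 (AT1G09940) encode glutamyl-tRNA reductases, HEMA1 being the light-induced form of green tissue. HEMA1 read 3.79, 3.33 and 3.47 in cry1cry2 on 3B7N and 2.72, 2.77 and 2.85 in cry1cry2 on DMSO. It read 3.53, 4.00 and 3.74 in wild type on 3B7N and 4.25, 3.95 and 4.01 in wild type on DMSO. The 3 arrays of the mutant on DMSO were below all others, and the 2 wild-type groups overlapped. In cry1cry2 on DMSO the HEMA1 level was 40.9% of that in wild type on DMSO (log2 difference -1.29 ± 0.16, SE, limma adjusted p = 7.34e-05). On 3B7N the mutant's level was 168% of its level on DMSO (0.75 ± 0.16, adjusted p = 0.0167), short of 2-fold. HEMA2 read 2.1, 1.56 and 2.18 in cry1cry2 on 3B7N and 1.49, 0.93 and 1.41 in cry1cry2 on DMSO. In wild-type seedlings it was at 1.74, 1.84 and 1.20 on 3B7N and at 1.05, 1.89 and 1.74 on DMSO. Ranked by mean, neighbouring groups of HEMA2 overlapped, while the highest, cry1cry2 on 3B7N, did not overlap the lowest, cry1cry2 on DMSO. None of the 5 comparisons of HEMA2 passed the test.

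GUN5 (AT5G13630), CHLI1 (AT4G18480) and GUN4 (AT3G59400) act at magnesium chelatase: GUN5 is the subunit that binds porphyrin, CHLI1 an ATPase subunit, and GUN4 a porphyrin-binding protein that stimulates the enzyme. GUN5 read 5.33, 4.87 and 4.90 in cry1cry2 on 3B7N and 4.12, 4.62 and 4.32 in cry1cry2 on DMSO. Wild type gave 5.88, 6.20 and 5.67 on 3B7N and 5.95, 5.43 and 5.51 on DMSO. Every mutant array was below every wild-type array, and the wild-type groups overlapped. GUN4 had the same arrangement, with 3.22, 2.88 and 3.06 in cry1cry2 on 3B7N and 2.37, 2.83 and 2.71 in cry1cry2 on DMSO. In wild-type seedlings it was at 3.69, 4.20 and 4.01 on 3B7N and at 3.97, 3.71 and 3.56 on DMSO. On DMSO the mutant held 41.3% of the wild-type level of GUN5 (-1.28 ± 0.21, limma adjusted p = 0.000459) and 46.2% of that of GUN4 (-1.11 ± 0.18, adjusted p = 0.000458).

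CHLI1 was arranged differently. It read 4.47, 4.16 and 3.88 in cry1cry2 on 3B7N and 3.62, 3.44 and 3.63 in cry1cry2 on DMSO. Wild type gave 3.85, 3.89 and 4.33 on 3B7N and 4.76, 4.50 and 4.76 on DMSO. Wild type on DMSO stood above all other arrays, the mutant on DMSO stood below them, and the 2 groups on 3B7N overlapped in between. CHLI1 fell to 63.7% of its DMSO level in wild type on 3B7N (-0.65 ± 0.18, limma adjusted p = 0.0136) and was at 46.3% in the mutant on DMSO against wild type on DMSO (-1.11 ± 0.18, adjusted p = 0.000448). A second, dimmer CHLI1 probe gave the same signs, with -0.71 for 3B7N in wild type and -1.0 for the mutant on DMSO. The probes of CHLI1 and its paralog CHLI2 may share signal.

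CHLM (AT4G25080) encodes the magnesium protoporphyrin IX methyltransferase, and CRD1 (AT3G56940) a subunit of the cyclase that closes the fifth ring. CHLM read 4.53, 4.21 and 4.33 in cry1cry2 on 3B7N and 3.74, 4.38 and 4.02 in cry1cry2 on DMSO. In wild-type seedlings it was at 4.80, 4.93 and 4.91 on 3B7N and at 5.39, 5.23 and 5.20 on DMSO. The 2 mutant groups overlapped below wild type on 3B7N, which lay below wild type on DMSO. CRD1 read 5.45, 5.09 and 5.16 in cry1cry2 on 3B7N and 4.63, 5.32 and 4.67 in cry1cry2 on DMSO. Wild type gave 5.82, 6.40 and 6.07 on 3B7N and 6.20, 5.85 and 5.83 on DMSO. All mutant arrays were below all wild-type arrays for CRD1, and within each genotype the media overlapped. The mutant's levels on DMSO were 42.7% of wild type for CHLM (-1.23 ± 0.16, limma adjusted p = 0.000117) and 47.2% for CRD1 (-1.08 ± 0.22, adjusted p = 0.00184).

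DVR (AT5G18660), the divinyl reductase that reduces a vinyl side chain of chlorophyll precursors, had the largest difference of the 10 in each of the 4 comparisons with a call. It read 2.76, 2.51 and 2.22 in cry1cry2 on 3B7N and 1.33, 0.92 and 1.48 in cry1cry2 on DMSO. It read 1.31, 1.51 and 2.47 in wild type on 3B7N and 3.02, 2.94 and 2.97 in wild type on DMSO. DVR was thus high in the mutant only with 3B7N and in wild type only without it, with array 3 of wild type on 3B7N lying above the other two, within the range of the mutant on 3B7N. The mutant on DMSO was at 30.1% of wild type on DMSO (-1.73 ± 0.27, limma adjusted p = 0.000356). With 3B7N, DVR rose to 238% of its DMSO level in the mutant (1.25 ± 0.27, adjusted p = 0.0167) and fell to 43.0% in wild type (-1.22 ± 0.27, adjusted p = 0.00442).

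CHLG (AT3G51820), chlorophyll synthase, attaches the phytol tail, and CAO (AT1G44446), chlorophyllide a oxygenase, makes the b form. CHLG read 1.90, 1.84 and 1.57 in cry1cry2 on 3B7N and 1.43, 1.30 and 1.43 in cry1cry2 on DMSO. In wild-type seedlings it was at 2.0, 1.82 and 1.94 on 3B7N and at 2.80, 2.32 and 2.60 on DMSO. As for CHLI1, wild type on DMSO was above and the mutant on DMSO below an overlapping pair on 3B7N. CHLG fell to 63.7% of its DMSO level in wild type on 3B7N (-0.65 ± 0.15, limma adjusted p = 0.00497) and was at 44.0% in the mutant on DMSO against wild type (-1.19 ± 0.15, adjusted p = 7.03e-05). CAO read 2.55, 2.18 and 2.12 in cry1cry2 on 3B7N and 1.62, 1.78 and 1.67 in cry1cry2 on DMSO. Wild type gave 2.46, 2.77 and 2.81 on 3B7N and 2.81, 1.86 and 2.26 on DMSO. Only the mutant on DMSO was separate from the other groups of CAO, since wild type on DMSO spread over most of the range.

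The first comparison asked what the loss of both cryptochromes does to these genes on DMSO. All 10 differences were below 0 (50.3% of all genes were), with a median log2 difference of -1.15 against -0.00 over all genes tested. The lower level passed the test with at least a 2-fold difference for 8 of 10 (HEMA1, GUN4, GUN5, CHLI1, CHLM, CRD1, DVR and CHLG), where 11.4% of all genes were called lower and 7.64% higher. CAO, at 65.2% of wild type, passed on the adjusted p alone (-0.62 ± 0.22, limma adjusted p = 0.0384), which makes 9 of 10 against 24.8% of all genes. CAO passed in 10 of 23 alternatives. HEMA2, at 82.2%, did not (-0.28 ± 0.27, adjusted p = 0.415). The arrays of the 2 genotypes did not overlap for 9 of 10 genes, against 56.1% of all genes in either direction and 29.7% with the mutant lower.

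The size of this difference depended on how arrays were scaled. With quantile scaling the median of the 10 was -0.73 and 3 were called (HEMA1, DVR and CHLG). With normexp background correction and quantile scaling it was -0.74 with 2 called (DVR and CHLG). All 10 stayed below 0 under both. CRD1 moved most, to -0.30 with quantile scaling (adjusted p = 0.165). With slide as a block the median was -1.36, and GUN5 (-1.31, adjusted p = 0.0528) and CAO (-0.93, adjusted p = 0.145) no longer passed. The second slide holds both genotypes on different media: there, both arrays of cry1cry2 on DMSO were below both of wild type on 3B7N for 9 of 10 genes, all but HEMA2, as for 31.1% of all genes, with a median of -0.97 against -0.00 over all genes.

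**Figure D2:**
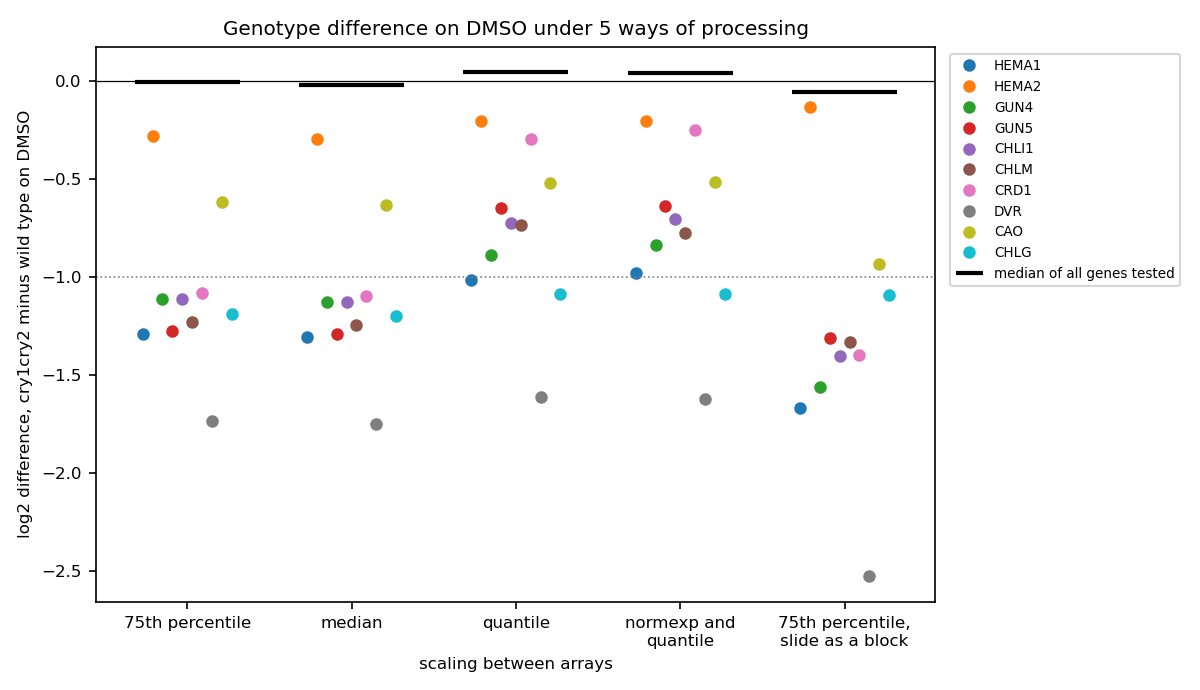
Log2 difference of cry1cry2 minus wild type on DMSO (vertical axis) for each of the 10 genes under 5 ways of processing (horizontal axis); black bars are the median over all genes tested and the dotted line marks a 2-fold lower level. Every dot is below 0, and GUN4, GUN5, CHLI1, CHLM and CRD1 lie nearer to 0 under both quantile settings.

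On 3B7N the differences between the genotypes ran from -0.91 (GUN4) to 0.73 (DVR). The median of the 10 was -0.31 against 0.05 over all genes, and 0 of 10 were called by limma at 2-fold, where 4.02% of all genes were called higher and 3.27% lower. GUN4, GUN5, CHLM and CRD1 were lower in the mutant on the adjusted p alone, at 53.1%, 54.3%, 69.7% and 54.8% of wild type on 3B7N (adjusted p = 0.00586, 0.0117, 0.0372 and 0.0154), which is 4 of 10 against 11.9% of all genes. At an unadjusted p under 0.05 these 4 passed as lower, where 17.8% of all genes did, and DVR passed as higher, where 22.4% did. DVR was at 166% of wild type (0.73 ± 0.27, adjusted p = 0.064). HEMA1 (-0.23), CHLG (-0.15), CAO (-0.40), CHLI1 (0.15) and HEMA2 (0.35) did not pass the test. The arrays of the genotypes did not overlap for 4 of 10, against 42.0% of all genes in either direction and 19.1% lower. CHLM passed the adjusted p in 12 of 23 alternatives and CRD1 in 17. With slide as a block none of these 4 passed (GUN4 at -1.16 with adjusted p = 0.313, the others at adjusted p = 0.560 to 0.653). With quantile scaling GUN5 was at -0.15, CHLM at -0.06 and CRD1 at -0.08, none of which passed, while DVR passed as higher in the mutant (0.92, adjusted p = 0.0351; with normexp adjusted p = 0.0241), and the signs of HEMA1 (0.087) and CHLG (0.012) turned. Without array 3 of wild type on 3B7N, DVR was called higher (1.09, adjusted p = 0.00689) and GUN5 lower (-1.01), and without array 1 of that group GUN4 (-1.05) and CRD1 (-1.01) were called lower. GUN5 was also called lower without array 1 of cry1cry2 on 3B7N (-1.03).

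**Figure D3:**
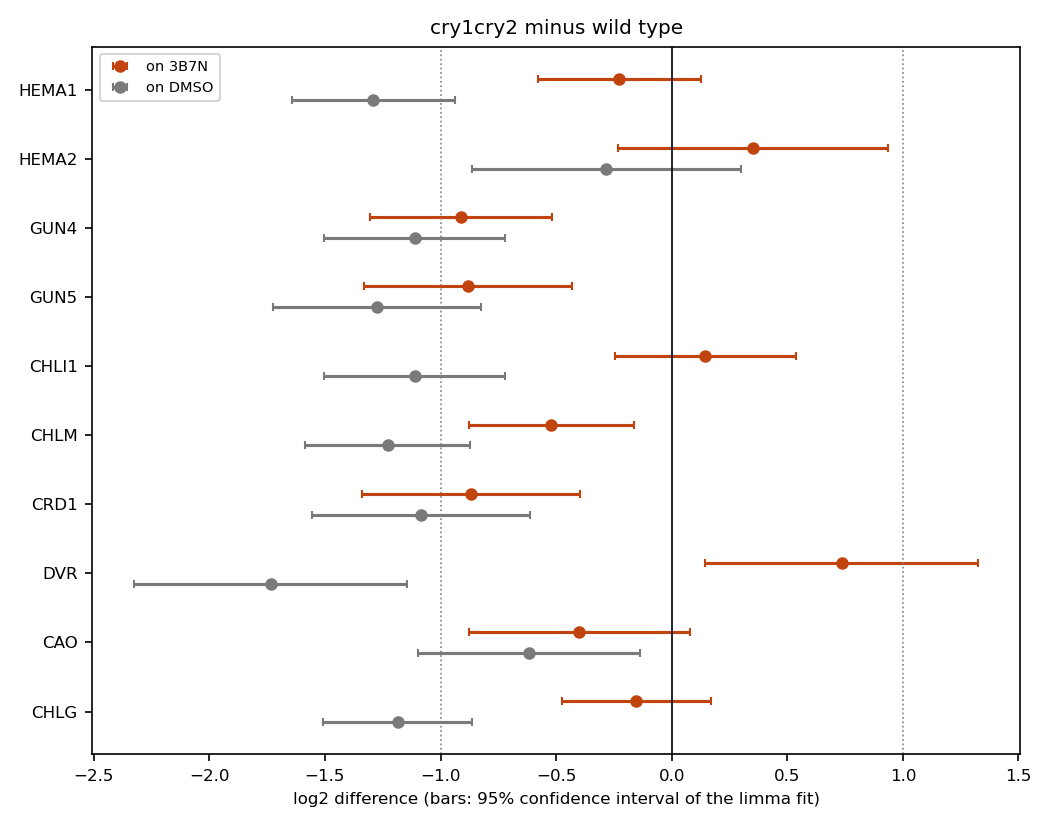
Log2 difference of cry1cry2 minus wild type for each of the 10 genes, on 3B7N (dark red) and on DMSO (grey), with 95% confidence intervals of the limma fit; dotted lines mark 2-fold. On DMSO the values run from -1.73 (DVR) to -0.28 (HEMA2), and on 3B7N from -0.91 (GUN4) to 0.73 (DVR).

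The next comparison asked how 3B7N acts where cryptochromes are missing. In cry1cry2 all 10 genes had differences of 3B7N minus DMSO above 0, of 0.31 (CHLM) to 1.25 (DVR) on the log2 scale, and 55.0% of all genes were above 0. The median of the 10 was 0.60 against 0.04 over all genes. DVR was the 1 gene of 10 called higher, where 2.11% of all genes were called higher and 1.63% lower, and HEMA1 joined it on the adjusted p alone (4.65% of all genes). GUN5 (0.68 ± 0.21, limma adjusted p = 0.0674) and CHLI1 (0.61 ± 0.18, adjusted p = 0.0622) fell short. With array weights 8 of 10 passed the adjusted p, GUN5 (0.84, adjusted p = 0.00882) and CHLI1 (0.61, adjusted p = 0.0223) among them, and GUN5 also passed with quantile scaling (0.71, adjusted p = 0.0175) and normexp (0.75, adjusted p = 0.0122). Over the 23 alternatives tried, 0 to 8 of 10 passed it. The arrays of the media did not overlap for 8 of 10, all but CHLM and CRD1, against 28.7% of all genes in either direction and 17.3% higher. On the third slide, with 3 arrays on 3B7N and 1 on DMSO, the 10 differences were all above 0 with a median of 0.55. With slide as a block none passed, DVR standing at 1.02 (adjusted p = 0.224) and HEMA1 at 0.68 (adjusted p = 0.200). The DVR call was also lost without array 2 of the mutant on DMSO (1.09, adjusted p = 0.0631) or array 1 of the mutant on 3B7N (1.12, adjusted p = 0.0839). HEMA1 missed the adjusted p without array 1 of either mutant group (adjusted p = 0.0603 without that on DMSO and 0.0849 without that on 3B7N).

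In wild type the 10 genes did not move together on 3B7N. DVR was called lower, 1 of 10 where 9.09% of all genes were called lower and 5.89% higher, and CHLI1 and CHLG were lower on the adjusted p alone, so that 3 of 10 passed it against 23.6% of all genes. None passed as higher by limma, where 16.5% of all genes did, and none of those above 0 had an unadjusted p under 0.05. GUN4 (0.22 ± 0.18), GUN5 (0.29 ± 0.21), CRD1 (0.14 ± 0.22) and CAO (0.37 ± 0.22) had differences above 0 that did not pass the test, with limma adjusted p = 0.35, 0.284, 0.629 and 0.194. CAO did pass as higher with array weights (0.66, adjusted p = 0.0314) and without array 1 of wild type on DMSO (0.62, adjusted p = 0.0247), and its lowest value without 1 array was 0.15. HEMA1 (-0.32 ± 0.16, adjusted p = 0.139) and CHLM (-0.40 ± 0.16, adjusted p = 0.0727) were below 0 and did not pass either, and HEMA2 was at 0.03 ± 0.27. The 95% interval for GUN5 runs from -0.16 to 0.74 and that for CRD1 from -0.33 to 0.61, so changes of up to these sizes cannot be told from none with 3 arrays a group. The median of the 10 was -0.14 against -0.06 over all genes, and 4 of 10 (DVR, CHLI1, CHLG and CHLM) did not overlap between media, against 49.9% of all genes in either direction and 28.2% lower. On the first slide, with 1 array on 3B7N and 3 on DMSO, DVR differed by -1.67, CHLI1 by -0.82, CHLG by -0.57 and CHLM by -0.47, while GUN4 (-0.05) and CRD1 (-0.14) turned sign. With slide as a block CHLG no longer passed (-0.57, adjusted p = 0.0836). Without array 1 of wild type on 3B7N the DVR difference was -0.99, just under 2-fold (adjusted p = 0.0173), and with array weights it was -0.97 (adjusted p = 0.00855). CHLI1 was at -0.47 with array weights (adjusted p = 0.0501). CHLM passed the adjusted p in 3 of 23 alternatives and HEMA1 in 1, both as lower.

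**Figure D4:**
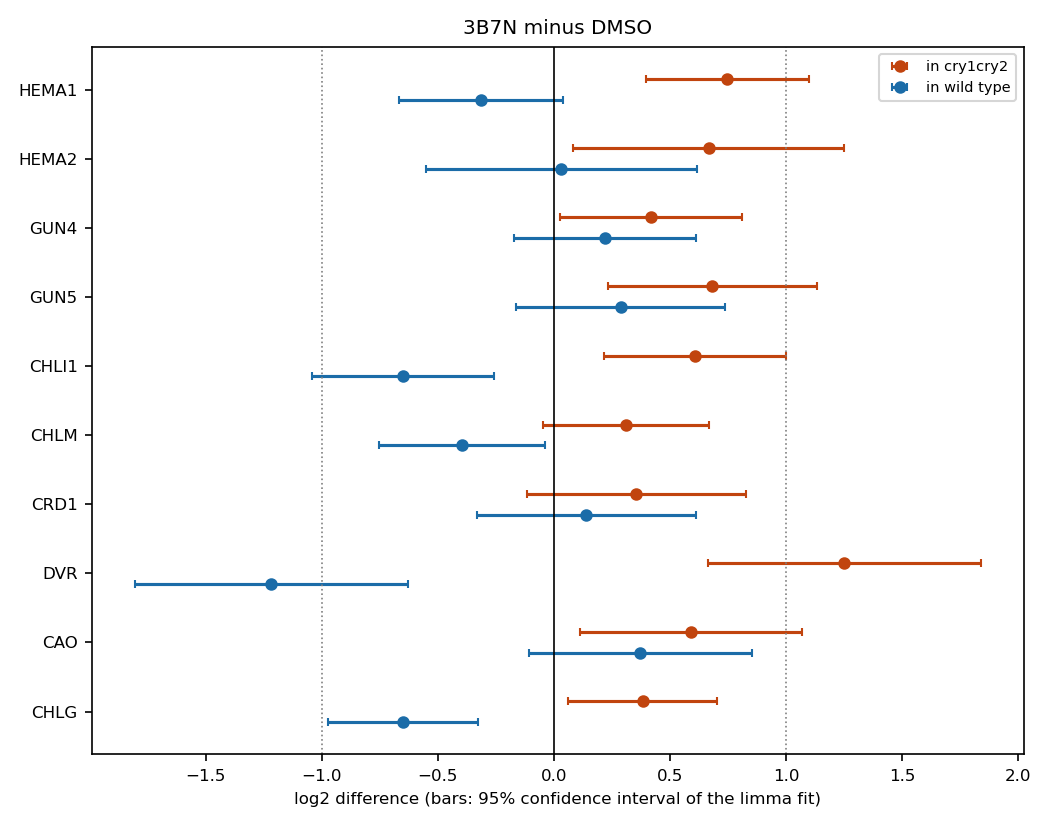
Log2 difference of 3B7N minus DMSO for each of the 10 genes, in cry1cry2 (dark red) and in wild type (blue), with 95% confidence intervals of the limma fit; dotted lines mark 2-fold. All values in cry1cry2 are above 0. In wild type the intervals of DVR, CHLI1, CHLM and CHLG lie below 0.

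Whether the change with 3B7N differed between genotypes was tested directly, as the change in cry1cry2 minus the change in wild type. It was above 0 for all 10 genes (54.2% of all genes were), with a median of 0.67 against 0.07 over all genes. Called at 2-fold were 4 of 10, against 12.7% of all genes called above 0 and 5.92% below: DVR (2.47 ± 0.38, limma adjusted p = 0.000876), CHLI1 (1.26 ± 0.25, adjusted p = 0.00384), HEMA1 (1.06 ± 0.23, adjusted p = 0.00535) and CHLG (1.03 ± 0.21, adjusted p = 0.00392). CHLM passed on the adjusted p alone (0.71 ± 0.23, adjusted p = 0.0383), which makes 5 of 10 against 18.9% of all genes, and it passed in 7 of 22 alternatives. HEMA2 (0.63), GUN5 (0.39), CRD1 (0.22), CAO (0.22) and GUN4 (0.20) did not pass. For GUN4 the 95% interval was -0.35 to 0.76 and for CRD1 -0.45 to 0.88. The values of HEMA1 and CHLG were close to 2-fold and dropped under it in some settings (HEMA1 was called in 18 and CHLG in 13 of 22 alternatives), HEMA1 to 0.99 and CHLG to 0.96 with median scaling, and with slide as a block CHLG (0.91, adjusted p = 0.0783) and CHLM (0.81, adjusted p = 0.145) no longer passed. The calls of DVR and CHLI1 held under every setting tried. The 5 comparisons share arrays, so the low values of the mutant on DMSO enter the genotype difference on DMSO, the 3B7N change in the mutant and the interaction alike.

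Over the 12 arrays GUN4, GUN5 and CRD1 correlated at r = 0.96 to 0.97 with each other. CHLI1 correlated at 0.95 with DVR and 0.91 with CHLG, while DVR and CRD1 correlated at 0.37. GUN5 and CHLI1, 2 subunits of the same enzyme, correlated at 0.58. HEMA2 correlated with the other 9 at -0.02 to 0.29. These are descriptions over arrays that share groups, slides and scaling, and no test was made. Among 8986 other genes with a symbol, those whose profile was most like the mean of the 10 were CYP76C6 (r = 0.975), G6PD1 (0.971), GOX2 (0.966), EMB3136 (0.962) and NPQ4 (0.961). Those most like HEMA1 alone were ATS1 (0.965), CYP71A21 (0.962), CYP76C6 (0.960), LSF1 (0.952) and G6PD1 (0.949).

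The remaining genes of tetrapyrrole metabolism were taken from a list of 45, of which 43 were tested (HO3 and HO4 were not). Among 13 genes of the early steps, 1 was called higher by limma in the mutant on DMSO, 6 were lower on the adjusted p alone, and the median was -0.34. Of all genes 7.64% were called higher there and 24.8% were lower on the adjusted p. GSA2, a glutamate-1-semialdehyde aminotransferase that works just after HEMA1, was at -0.84 (adjusted p = 0.00654) there and at 0.97 with 3B7N in the mutant (adjusted p = 0.0167). All 13 had differences above 0 with 3B7N in the mutant, as 55.0% of all genes had. HEMF2, a coproporphyrinogen oxidase gene, went the other way from the 10 in the mutant on DMSO, where it was higher by 1.48 (adjusted p = 0.00452). With 3B7N in wild type, where the 10 had no common direction, HEMF2 was higher by 1.85 (adjusted p = 0.00156). Its signal was low.

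Of the 7 other genes of the magnesium branch, PORC, the oxidoreductase of mature green tissue, passed the test in the same 3 directions as DVR. It was lower in the mutant on DMSO than in wild type (-1.33, limma adjusted p = 2.46e-05), rose with 3B7N in the mutant (1.05, adjusted p = 0.00128) and fell with it in wild type (-0.61, adjusted p = 0.00636). CHLI2, the paralog of CHLI1, had an interaction of 1.15 (adjusted p = 0.00745). CHLD, a further chelatase subunit, was at 0.15 in the mutant on DMSO (adjusted p = 0.517). PORB, in contrast, was higher on 3B7N in both genotypes, by 0.99 in the mutant (adjusted p = 0.0148) and 1.97 in wild type (adjusted p = 4.26e-05). In the mutant its 5 probes ran from 0.41 to 0.99 with a median of 0.65, and in wild type from 1.9 to 2.1. PORA, not well above background on any array of wild type on DMSO, was at least 771-fold higher in wild type on 3B7N (adjusted p = 1.5e-08) and at least 1541-fold higher in the mutant on DMSO (adjusted p = 1.73e-09). On the arrays of wild type on DMSO, where PORA was not well above background, PORB read 3.56, 3.50 and 3.34. Whether the probes of PORA and PORB share signal elsewhere was not tested.

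In the heme and bilin branch, FC2, the ferrochelatase of green tissue, was called lower in the mutant on DMSO (-1.40, limma adjusted p = 2.11e-05), 1 of 6 tested where 11.4% of all genes were, and its interaction was 1.32 (adjusted p = 0.00102). UPM1, a methyltransferase of siroheme synthesis, fell with 3B7N in wild type (-0.92, adjusted p = 0.00178). HY2, which makes the phytochrome chromophore, was higher in the mutant than in wild type on 3B7N (1.24, adjusted p = 0.00107). It was also higher in the mutant on DMSO, on the adjusted p alone (0.92), and did not pass for 3B7N against DMSO in the mutant. Among 5 regulators, 4 were lower in the mutant on DMSO on the adjusted p alone (24.8% of all genes were lower on it), among them GBP, a glutamyl-tRNA reductase-binding protein (-0.61, adjusted p = 0.00787), and GUN1, a plastid signalling protein (-0.51, adjusted p = 0.01). Of the chloroplast transcription factors, GLK2 was lower there (-0.79, adjusted p = 0.000998) and GLK1 was not (0.01, adjusted p = 0.965).

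Genes of chlorophyll turnover, 10 in number, went both ways in the mutant on DMSO, with 2 called higher and 3 lower, where 7.64% of all genes were called higher and 11.4% lower. PAO, the pheophorbide a oxygenase that opens the ring in breakdown, was higher by 1.32 (limma adjusted p = 0.00126) and NYE2, a stay-green protein, by 1.19 (adjusted p = 0.00133). Both were also called higher with 3B7N in wild type, by 1.73 for PAO (adjusted p = 0.000316) and 1.23 for NYE2 (adjusted p = 0.00147). CLH2, a chlorophyllase, was called lower with 3B7N in wild type (-1.53). At an adjusted p under 0.05 by limma, 3 of the 10 were higher and 3 lower there, against 16.5% and 23.6% of all genes. The chlorophyllases CLH1 (-1.34, adjusted p = 0.000141) and CLH2 (-1.74, adjusted p = 1e-06) and the catabolite reductase ACD2 (-1.23, adjusted p = 5.66e-05) were lower in the mutant on DMSO. Over all 43 genes, 4 were called higher and 5 lower in that comparison, 1 (PORC, higher) with 3B7N in the mutant, and 5 higher and 1 lower with 3B7N in wild type. Over all genes 7.64% were called higher and 11.4% lower in that comparison, 2.11% higher with 3B7N in the mutant, and 5.89% higher and 9.09% lower with it in wild type. Their median in the mutant on DMSO was -0.30, against -1.15 for the 10 and -0.00 for all genes.

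**Figure D5:**
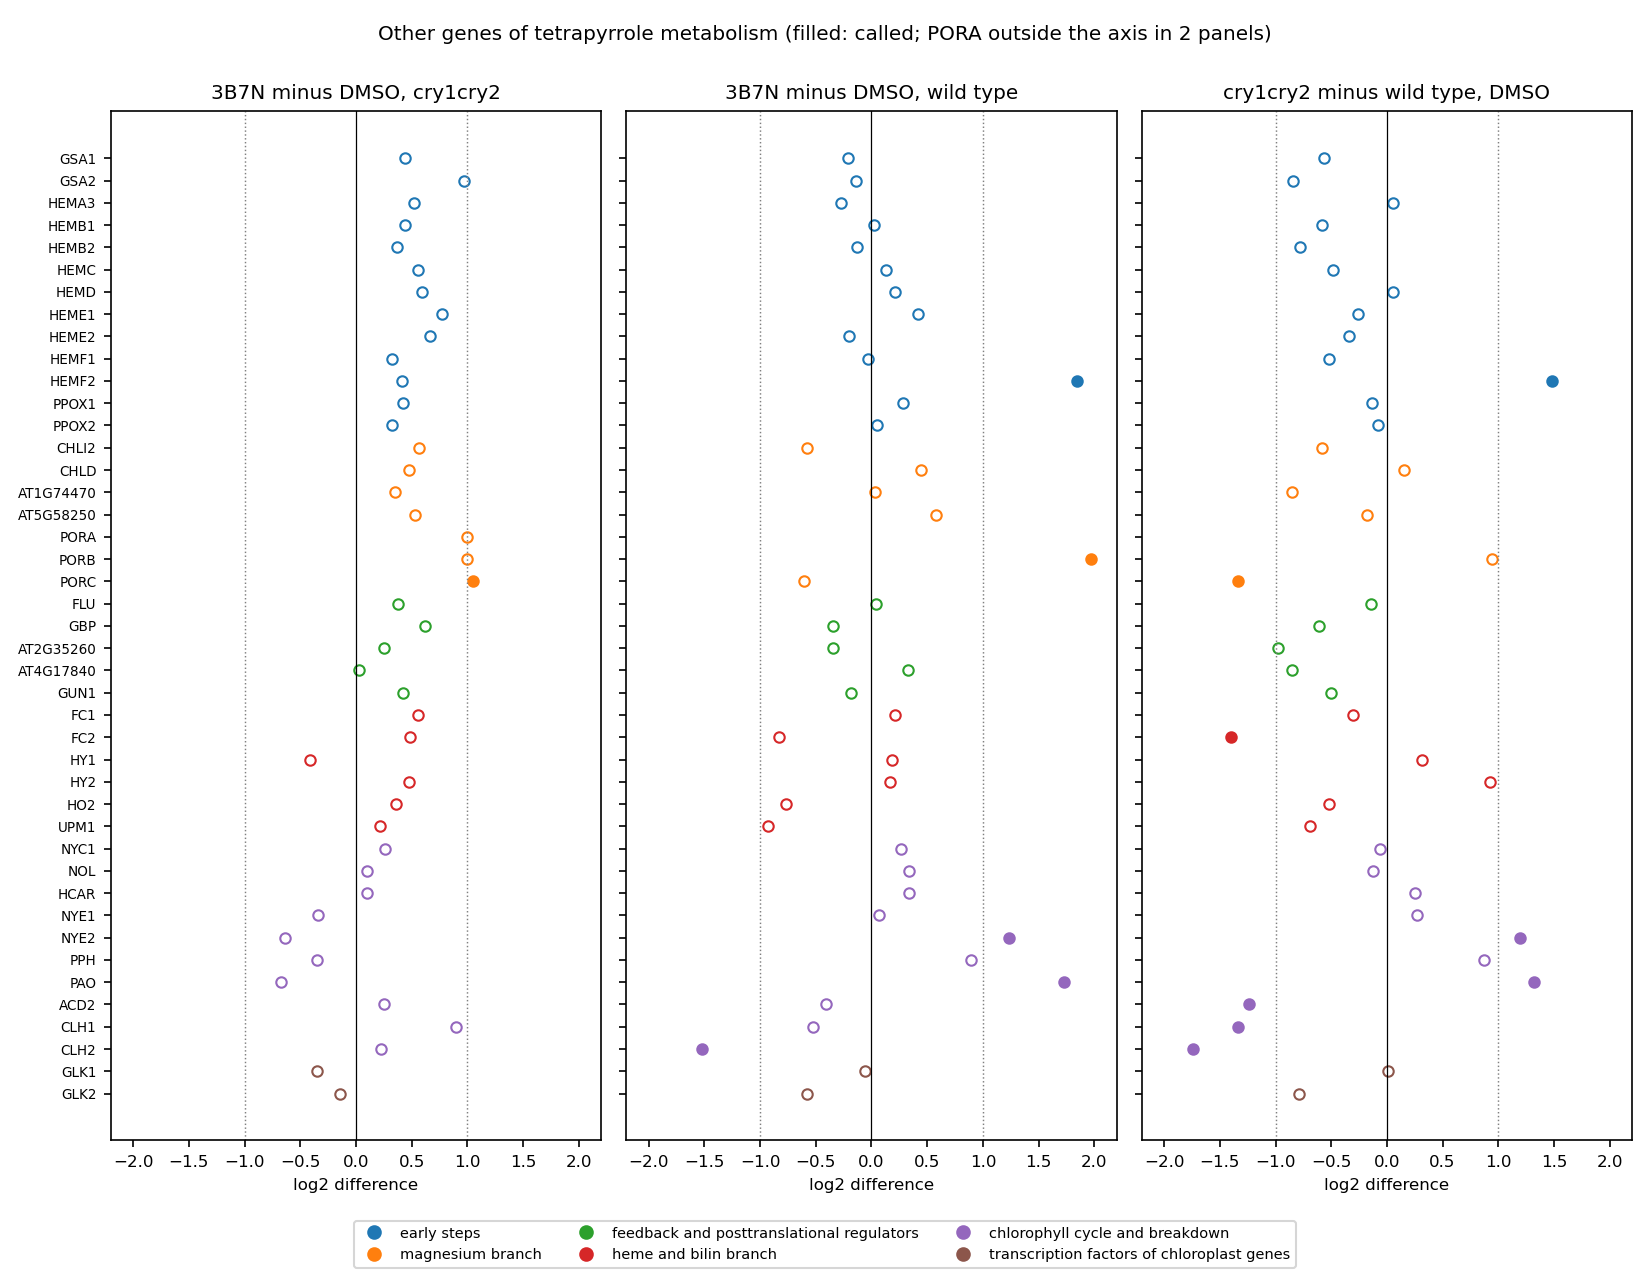
Log2 differences of the 43 tested other genes of tetrapyrrole metabolism (rows, coloured by role) in 3 comparisons (columns); filled dots were called at an adjusted p under 0.05 and 2-fold, dotted lines mark 2-fold. PORA lies outside the axis in 2 of the columns. Filled dots lie on both sides of 0 except for 3B7N in the mutant.

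Most markers of green tissue moved with the genotype difference. RBCS1A (-1.38), RCA (-1.70), LHCB2.1 (-1.04) and PSBO1 (-1.14) were called lower by limma in the mutant on DMSO. That is 4 of 5, where 11.4% of all genes were called lower. LHCB3 was at -0.00 in that comparison, its probes running from -0.11 to 0.70. All 9 RCA probes were below 0 there, between -3.32 and -1.70. Markers of root hairs moved the same way (COBL9 -1.88, EXPA7 -1.74, RHS19 -1.99), the endodermal marker CASP1 was higher (1.10), and PHT1;1 was at -0.42 and did not pass. Between genotypes on 3B7N, the green markers RCA (-1.18) and LHCB2.1 (-1.26) were still called lower in the mutant, where 3.27% of all genes were. RBCS1A (-0.99) and LHCB3 (-0.61) were lower on the adjusted p alone, and PSBO1 (-0.97) did not pass. With 3B7N in wild type, beside the lower DVR, CHLI1 and CHLG, LHCB3 was called higher (1.07), LHCB2.1 was higher on the adjusted p alone (0.76), and RBCS1A (-0.07) and PSBO1 (0.09) did not pass. RCA depended on the probe there: its brightest was at 0.05 and did not pass, while 8 of its 9 kept probes were below 0, with a median of -0.83 and a lowest value of -1.28. The root markers also moved with 3B7N in wild type, CASP1 being called higher (1.83) and COBL9 (-0.84) and RHS19 (-0.90) lower on the adjusted p alone, while EXPA7 (-0.19) and PHT1;1 (-0.14) did not pass. ICL, a glyoxylate cycle gene active while seed oil is used, was higher with 3B7N in wild type (2.67) and with the mutation on DMSO (1.60). The seed storage genes CRA1, CRU3 and OLEO1, of the same list, did not pass in any comparison, and SESA1 was well above background on 3 of 12 arrays, so no difference is given for it. With 3B7N in the mutant the 5 green markers stood at differences of 0.25 to 0.57, none of which passed the test by limma, 2 having an unadjusted p under 0.05. The part of tissue composition and seedling stage in the values of the 10 genes was not tested.

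The authors' deposited table lists probes with a fold change of at least 2 and a corrected p-value for 3B7N against DMSO in each genotype, without a sign. DVR is the 1 gene of the 10 in the authors' deposited table for either genotype, with a 2.40-fold change in cry1cry2 (corrected p = 0.0212) and a 2.39-fold change in wild type (corrected p = 0.00998). Of 43603 probes on the array, that table lists 577 for cry1cry2 and 3453 for wild type.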

How the data were processed

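Per the file headers, the authors scanned 12 one-colour arrays and extracted spot intensity with Agilent Feature Extraction 10.7.3.1; the deposited processed signal is background-subtracted and not scaled between arrays. The authors also deposited lists of probes with a fold change and a corrected p-value, for which no source used here gives the scaling. The series text speaks of 3 chemicals, of which 3B7N is analysed here. Here, log2 processed signals were set relative to each array's 75th percentile, after averaging spots of a probe and leaving out 49 of 43603 probes with an outlier spot. The filter on dim probes asked for a signal well above background in all 3 arrays of any 1 group. RefSeq accessions (assembly TAIR10.1) gave 34348 probes a locus and left 9255 without. The headers name TAIR10, so no coordinates are given. Of 28504 kept probes with a locus, the brightest stood for its gene, which left 20487 genes. DVR, CAO and CHLG were matched by locus, since the table names them PCB2, CH1 and G4.

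Differences were tested with limma 3.58.1 in R 4.3.3 (lmFit, eBayes, two-sided), 1 fit of 4 group means, with Benjamini-Hochberg adjustment over 20487 genes. A gene counts as called where its adjusted p is under 0.05 and it differs by 1 or more on the log2 scale, in either direction. The fit was tested on simulated data. Where a probe was above background on no array of the dim group, the fold is a lower bound against the lowest signal that passed as well above background on each array. The number of arrays limits the precision. Alternatives were median, quantile and normexp scaling (offset 50), 2 other filters on dim probes, the mean of a gene's probes, slide as a block, within-slide values, a replicate block, array weights, fits of 2 groups only, and leaving out each array; leaving out the dimmest and brightest arrays together was chosen after seeing the data. All 10 genes are named in every comparison; of the tetrapyrrole list, genes called in any pairwise comparison and up to 4 per role with the smallest adjusted p may be named, and CHLD and CHLI2 were added after their values were seen. The genes and lists were chosen with earlier results of these data known.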

Additional observations from a re-analysis of the deposited data

Results flagged for a closer look

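By limma's interaction term at an adjusted p under 0.05, the change with 3B7N differed between genotypes for 5 of the 10 genes. All 5 were above 0, where 18.9% of all genes passed above 0. The value given is the change in cry1cry2 minus that in wild type. It was 2.47 for DVR (SE 0.38, adjusted p = 0.000876), 1.26 for CHLI1 (SE 0.25, adjusted p = 0.00384), 1.06 for HEMA1 (SE 0.23, adjusted p = 0.00535), 1.03 for CHLG (SE 0.21, adjusted p = 0.00392) and 0.71 for CHLM (SE 0.23, adjusted p = 0.0383). For DVR, CHLI1 and CHLG the change was above 0 in the mutant and passed the test below 0 in wild type. The CHLM difference passed the adjusted p in 7 of 22 alternative settings, and those of DVR, CHLI1 and HEMA1 in all 22.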

How the results depend on the processing

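Counts of the 10 genes called were 1 for 3B7N in cry1cry2, 1 for 3B7N in wild type, 8 for cry1cry2 against wild type on DMSO, 0 on 3B7N and 4 for the interaction. With array weights the count for 3B7N in wild type was 0, DVR at -0.97 falling just under 2-fold. With slide as a block that for 3B7N in cry1cry2 was 0. On DMSO it was 3 with quantile scaling and 2 with normexp. For the interaction it was 2 with median scaling. Leaving out 1 array at a time gave 0 to 1 for 3B7N in cry1cry2, 0 to 1 for 3B7N in wild type, 6 to 8 on DMSO, 0 to 2 on 3B7N and 2 to 4 for the interaction. The lowest interaction counts came without array 1 of wild type on DMSO and without array 1 of cry1cry2 on 3B7N. The cause of these shifts was not tested.

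With the replicate number as a block the counts of members called were again 1, 1, 8, 0 and 4, while CAO on DMSO (adjusted p = 0.0511), CHLM on 3B7N (0.0552) and the CHLM interaction (0.0584) missed the adjusted p under the block. Deviations of same-numbered arrays correlated at -0.33 to 0.36. Arrays of different numbers were not compared, so these values cannot tell whether arrays of the same number were handled together.

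Signs that turned belonged to values that passed in no setting. For 3B7N in wild type HEMA2 was at -0.0087 (quantile), -0.0015 (normexp), -0.26 (array weights), -0.22 without array 1 of wild type on DMSO, -0.039 without array 1 of wild type on 3B7N and -0.091 without array 2 of that group, the highest such value being 0.23. There GUN4 (-0.054) and CRD1 (-0.14) turned with slide as a block and within the first slide, and CRD1 (-0.011, highest 0.28) without array 2 of wild type on 3B7N. On 3B7N, the genotype difference turned for HEMA1 (0.087 quantile, 0.11 normexp), CHLG (0.012 quantile) and CHLI1 (-0.038 with slide as a block, -0.0031 without array 1 of cry1cry2 on 3B7N, highest 0.30). The CAO interaction was -0.032 without array 1 of wild type on DMSO, highest 0.44. Leaving out the dimmest and brightest arrays together, chosen after seeing the data, gave the same HEMA2 and CRD1 values as leaving out array 2. Of the values of single genes under the alternatives with a test, 1081 kept direction and side of the threshold, 37 lost the call, 5 gained it and 17 turned.

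Over all genes, counts called moved by over 1.5 times with normexp, to 390 (3B7N in cry1cry2, 767 before), 1751 (in wild type, 3069), 2532 (genotype on DMSO, 3895), 586 (on 3B7N, 1492) and 2498 (interaction, 3816). They also moved with slide as a block (308 for 3B7N in cry1cry2, 46 for genotype on 3B7N), the filter over all 12 arrays (494 and 981), no filter (2690 for genotype on 3B7N) and without array 1 of cry1cry2 on 3B7N (443 for 3B7N in cry1cry2). Within-slide values give no counts and exist for no genotype comparison, and the fit of 2 groups exists for no interaction.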
